A study of Mus musculus with 19 samples.

Results

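The genes described here are the 39 members of a list of endoplasmic reticulum (ER) folding factors and unfolded protein response genes, 39 of 18193 genes that the array annotation names by a single symbol. The members were listed by name. Each stood by the probe set with the highest mean over all 19 arrays, and all 39 were among the 11728 genes that passed the filter on low values. The list holds 12 ER chaperones and co-chaperones, 5 disulfide enzymes, 9 genes of ER-associated degradation, 4 genes for the stress sensors and XBP1, 6 genes of the ATF4-CHOP arm and 3 genes of protein translocation. The study measured RNA from prostate lobes of C57BL/6J mice that were 8 weeks old at the start and had free access to either a control diet or a high fat diet (HFD) for 12 weeks, with 5 mice on each diet. The labels name no allele or transgene. The 4 groups were the ventral prostate (VP) on the control diet (5 arrays), VP on HFD (5 arrays), the dorsolateral prostate (DLP) on the control diet (5 arrays) and DLP on HFD (4 arrays), and anterior lobes were not analysed here. The labels do not tie an array to a mouse or say whether RNA was pooled, so the p-values measure the spread between these arrays, part of which may be technical.

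Proteins that a cell secretes enter the ER through the Sec61 channel, are folded by chaperones such as BiP (the product of Hspa5) and cross-linked by disulfide isomerases, and are returned to the cytosol for degradation when they fail to fold. When unfolded protein builds up, the membrane sensors IRE1 (Ern1), ATF6 and PERK (Eif2ak3) start the unfolded protein response: IRE1 splices the Xbp1 mRNA, ATF6 is cleaved to a transcription factor, and PERK phosphorylates eIF2alpha, which lowers translation but raises that of ATF4. XBP1 and ATF6 act on chaperone and degradation genes, whereas ATF4 acts on genes of amino acid supply and, with CHOP (Ddit3), on genes of the late stress response. ATF4 is also raised by amino acid shortage and other stresses that do not start in the ER. The prostate lobes are secretory glands whose luminal cells export large amounts of protein into the seminal fluid, and the lobes differ in which proteins they secrete.

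Known binding sequences of ATF6, XBP1 and ATF4 were searched near the start sites of the members, and the stretches around some matches are shown because the chaperone and ATF4-CHOP genes are compared throughout. Promoter windows from RefSeq (assembly GRCm38.p6), from 250 bases before to 50 bases after the start site, were found for 34 of the 39 members. The ER stress element (ERSE), CCAAT and CCACG with 9 bases between them, on either strand, was found in the windows of 9 of the 34 (Hspa5, Hsp90b1, Calr, Canx, Dnajc3, Creld2, Pdia6, Syvn1 and Derl3), against 37 of 27025 genes with a window (0.137%). The shorter ERSE-II, ATTGG and CCACG with 1 base between them, was in 2 of the 34 (Dnajb11 and Herpud1), against 0.0444% of genes. The UPRE letters TGACGTGG were in none of the 34 windows, against 0.714% of genes. An ATF4 composite site, TGATGNAA, was in 5 (Herpud1, Trib3, Asns, Chac1 and Nupr1), against 4.51% of genes, and 4 of these 5 belong to the ATF4-CHOP arm. None of these patterns contains another, although ERSE and ERSE-II share CCACG. A match is a description of the letters and shows no binding. The stretches below lie before the start site, on the strand of the gene, with the match in capitals. Hspa5 (chr2:34771975-34772089, plus strand), Hsp90b1 (chr10:86705483-86705694, minus strand, with 2 matches), Creld2 (chr15:88819470-88819588, plus strand) and Derl3 (chr10:75893192-75893310, plus strand) were chosen as ERSE genes whose level differed between lobes. Canx (chr11:50325750-50325868, minus strand) was chosen as an ERSE gene without such a difference. Asns (chr6:7693210-7693282, minus strand), Chac1 (chr2:119350999-119351106, plus strand) and Nupr1 (chr7:126625523-126625630, minus strand) were chosen as ATF4-CHOP genes with the composite site.
Hspa5: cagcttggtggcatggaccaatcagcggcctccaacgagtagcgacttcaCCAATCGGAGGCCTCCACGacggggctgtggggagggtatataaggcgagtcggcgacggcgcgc
Hsp90b1: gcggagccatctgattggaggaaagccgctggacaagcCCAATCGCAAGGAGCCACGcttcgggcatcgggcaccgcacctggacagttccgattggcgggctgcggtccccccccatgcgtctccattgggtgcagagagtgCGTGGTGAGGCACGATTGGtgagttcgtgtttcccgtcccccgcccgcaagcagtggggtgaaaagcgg
Creld2: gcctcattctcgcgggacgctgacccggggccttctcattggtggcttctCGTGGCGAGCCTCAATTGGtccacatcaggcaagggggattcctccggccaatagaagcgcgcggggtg
Derl3: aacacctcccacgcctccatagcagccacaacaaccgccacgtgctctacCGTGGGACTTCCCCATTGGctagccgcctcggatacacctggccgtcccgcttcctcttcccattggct
Canx: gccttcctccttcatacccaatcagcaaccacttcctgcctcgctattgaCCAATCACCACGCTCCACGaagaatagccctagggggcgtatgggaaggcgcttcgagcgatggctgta
Asns: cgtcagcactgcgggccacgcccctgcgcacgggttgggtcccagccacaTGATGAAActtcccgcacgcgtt
Chac1: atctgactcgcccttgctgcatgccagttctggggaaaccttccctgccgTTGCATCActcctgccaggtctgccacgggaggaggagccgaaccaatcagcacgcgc
Nupr1: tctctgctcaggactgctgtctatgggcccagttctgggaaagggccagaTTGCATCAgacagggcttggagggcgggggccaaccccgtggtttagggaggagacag

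All levels below are log2 values of 1 probe set, a scale that rests on reading the deposited values as log10, and levels of different genes are not compared because probe sets differ in how they respond. A difference is a mean log2 difference with its standard error (SE) from limma, and a gene is called changed at an adjusted p under 0.05 over all 11728 genes. The deposited arrays hold the same set of values in different order, so each difference is relative to the other transcripts on the array. In whole lobes, fewer cells of a type and less RNA per cell cannot be told apart. Of 8 luminal markers fixed for the check, Krt8, Krt18, Pbsn, Hoxb13, Cd24a and Epcam were measured, and all 6 were above the array median on all 19 arrays. Some arrays stood apart. Of 20 other genes that were high in VP and low in DLP, the array DLP 2 on HFD held the highest level of its group for 20 and the array DLP 2 on the control diet for 15, with medians of 2.62 and 2.24 against 1.47 to 1.62 and 1.77 to 1.96 on the remaining DLP arrays of each diet. Seminal vesicle markers were highest on VP 2 and DLP 1 of the HFD groups, and macrophage markers on VP 3 of the HFD group. The 3' to 5' difference of the Gapdh control probe sets, a sign of RNA quality, ran from -0.413 to -0.032 in VP and from -0.54 to -0.351 in DLP. That of the actin control probe sets ran from 1.17 to 1.639 in VP and from 1.35 to 1.745 in DLP. Where leaving out one of these arrays changed a call, the value without it is given beside the result.

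**Figure D1:**
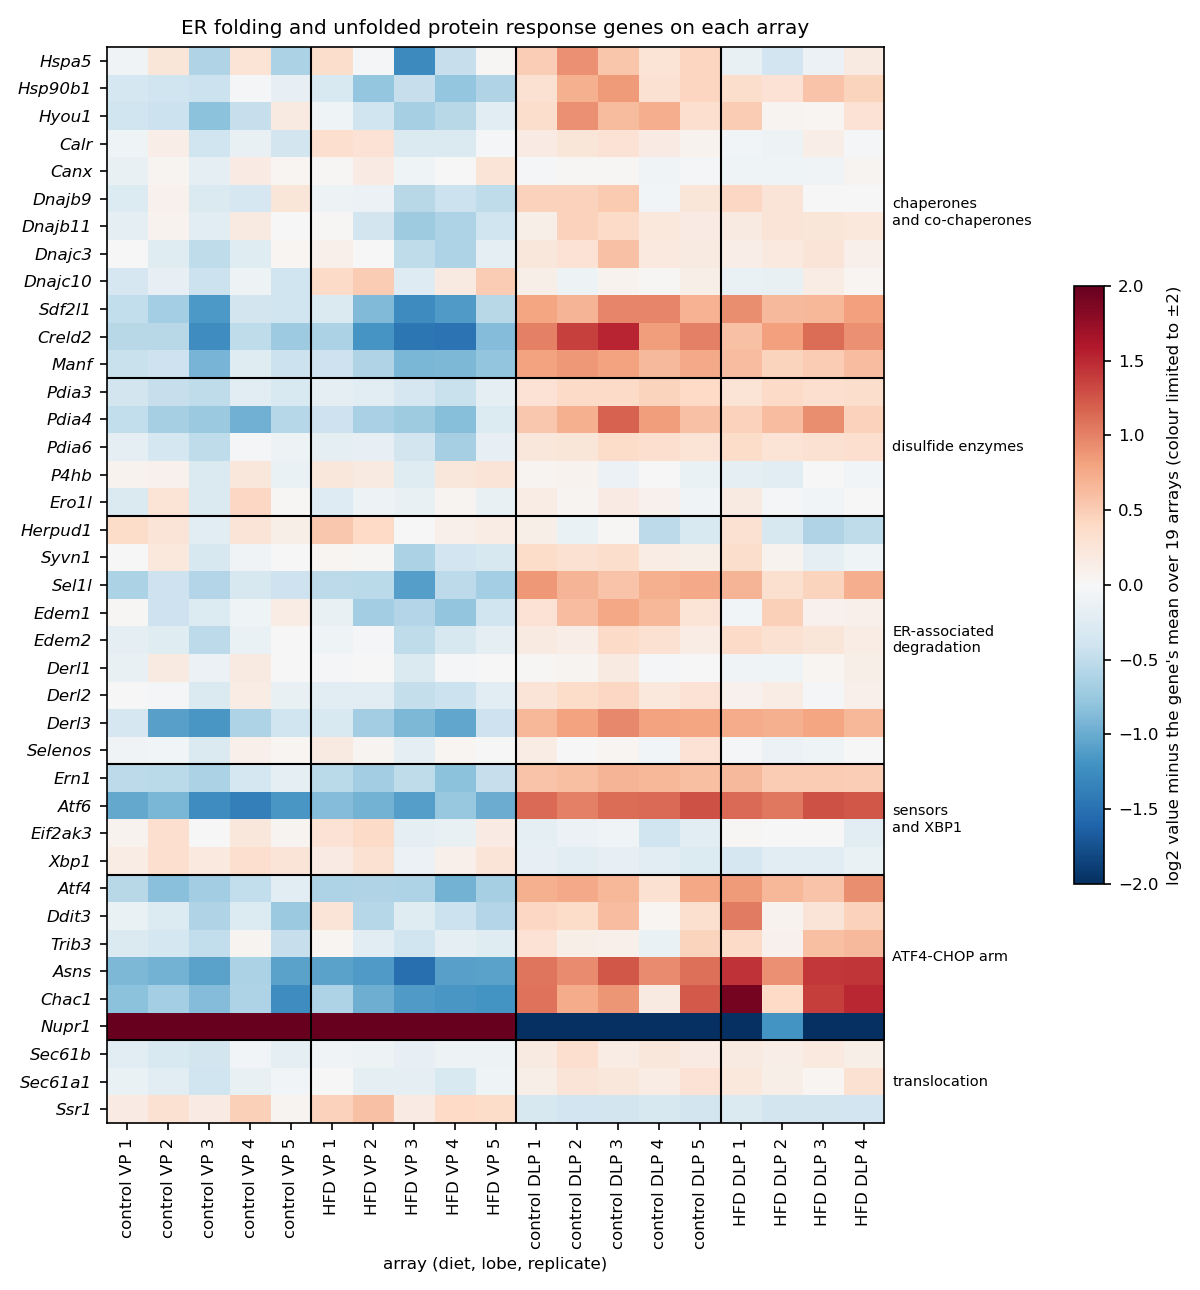
Log2 value of each of the 39 genes (rows, by role) on each of the 19 arrays (columns, by diet, lobe and replicate), less the gene's mean over the 19 arrays; red is above and blue below that mean, and the colour stops at 2 units either way. Most rows turn from blue in the 10 VP arrays to red in the 9 DLP arrays. The means of Nupr1, Xbp1, Ssr1, Herpud1, Eif2ak3 and, slightly, P4hb run the other way on both diets.

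The lobe made the main difference. On the control diet, 28 of the 39 genes were higher in DLP than in VP and 4 were lower (Nupr1, Xbp1, Ssr1 and Eif2ak3), together 32 of 39 in a comparison in which 55% of all genes were called (28.2% higher and 26.8% lower). The median difference, DLP minus VP, was 0.48 over the 39 genes and 0.00 over all 11728. On HFD, 25 were higher in DLP and 4 were lower (Nupr1, Xbp1, Ssr1 and Herpud1), against 52.9% of all genes called (26.8% higher and 26.1% lower), and the medians were 0.51 and 0.00. The 28 genes called in the same direction on both diets made 71.8% of the list, against 43.6% of all genes tested, and no member was called in opposite directions in this fit on all 19 arrays (without HFD VP 3, Dnajc10 was). The arrays of the 2 lobes did not overlap at all for 27 of 39 genes (69.2%) on each diet, against 39.3% of all genes on the control diet and 44.4% on HFD. Without both DLP 2 arrays, 26 genes were higher and 4 lower on the control diet and 25 higher and 4 lower on HFD. Without VP 2 and DLP 1 of the HFD groups, the counts were 29 and 5 on the control diet and 25 and 4 on HFD. Without HFD VP 3, they were 29 and 4 on the control diet and 25 and 6 on HFD, where Dnajc10 and P4hb were added to the genes lower in DLP.

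Markers of some other cell types differed between the lobes as well. On the control diet, 7 of 7 nerve markers, 5 of 7 smooth muscle markers and 3 of 3 basal cell markers were higher in DLP, and 2 of 5 macrophage markers (40%) were lower. On HFD the counts were 5, 5, 2 and 2. Of all genes, 55% and 52.9% were called on the 2 diets. On each diet 0 of 4 endothelial, 1 of 6 fibroblast, 1 of 2 adipocyte and 0 of 2 seminal vesicle markers were called. Of 2 T cell markers, 1 was called on the control diet and 0 on HFD. Of the 6 luminal markers, 2 were higher in DLP and 3 lower. Summed marker levels are the log2 of values added before the logarithm, so the brightest markers weigh most. The summed luminal level did not overlap on the control diet, at 11.67 to 12.70 in VP and 13.09 to 13.41 in DLP. The mean luminal level, relative to all 19 arrays, did overlap, at -0.64 to 0.09 in VP and 0.01 to 0.17 in DLP. The 2 luminal markers higher in DLP were Pbsn (means of 10.4 and 12.58) and Cd24a (9.73 and 10.84). On the log2 scale, the summed nerve markers ran from 3.95 to 4.32 in VP and from 4.95 to 7.60 in DLP on the control diet, and the summed smooth muscle markers from 10.87 to 11.22 and from 11.19 to 11.38. The summed basal markers ran from 4.31 to 5.01 in VP and from 4.91 to 5.35 in DLP on that diet, and the summed macrophage markers from 5.78 to 7.48 and from 5.52 to 7.07. Plasma cells, which are rich in ER, were covered with B cells by 8 markers whose sum ran from 4.82 to 7.42 in VP and from 5.28 to 5.90 in DLP on the control diet, and from 4.79 to 6.56 and 5.63 to 5.79 on HFD. Of these 8, Jchain and Sdc1, the latter also an epithelial gene, were above the array median on 19 of 19 arrays, Mzb1 on 11, Ms4a1 on 4, Pou2af1 on 1, and Tnfrsf17, Cd79a and Cd79b on 0. The 4 that could be tested gave 2 higher in DLP and 1 lower on the control diet, and 1 higher and 0 lower on HFD. The part of cell composition and of RNA quality in the lobe differences was not tested.

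Among the chaperones and co-chaperones, 11 of 12 were higher in DLP on the control diet and none was lower, with a median difference of 0.59. The largest differences belonged to Creld2, Sdf2l1, Manf and Hyou1. Creld2, an ER-resident protein that rises under ER stress, read 7.45, 7.45, 6.75, 7.49 and 7.28 on the control VP arrays and 9.00, 9.37, 9.53, 8.84 and 9.00 on the control DLP arrays, and the groups lay far apart. Its difference was 1.86 ± 0.17 (SE, adjusted p = 2.1e-08). On HFD it read 7.37, 6.82, 6.56, 6.52 and 7.13 in VP and 8.59, 8.82, 9.11 and 8.92 in DLP, again without overlap, and differed by 1.98 ± 0.18 (adjusted p = 2.1e-08). Sdf2l1, a partner of the BiP chaperone system, read 7.20, 7.01, 6.55, 7.33 and 7.30 in control VP and 8.48, 8.38, 8.68, 8.68 and 8.39 in control DLP. Every DLP array was above every VP array, by 1.45 ± 0.16 on average (adjusted p = 2.7e-07), and by 1.59 ± 0.17 on HFD (adjusted p = 1.7e-07). Manf, a secreted and ER-held protein of the stress response, read 8.56, 8.59, 8.07, 8.75 and 8.57 in control VP and 9.81, 9.86, 9.81, 9.64 and 9.76 in control DLP. Its difference was 1.27 on both diets, with SEs of 0.11 and adjusted p of 5.4e-09 and 1.3e-08. Hyou1, a nucleotide exchange factor for BiP, read 6.84, 6.80, 6.41, 6.78 and 7.41 in control VP and 7.59, 8.14, 7.86, 7.96 and 7.57 in control DLP. The lobes did not overlap, and the difference was 0.98 ± 0.16 on the control diet (adjusted p = 2.7e-05) and 0.61 ± 0.17 on HFD (adjusted p = 0.0045). The dimmer probe sets of Hyou1 gave 0.52 and 0.17 on the control diet and 0.39 and 0.21 on HFD.

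The remaining chaperones had differences of at most 1.00. Hsp90b1, the ER form of HSP90, was higher in DLP by 0.80 ± 0.12 on the control diet and by 1.00 ± 0.12 on HFD. Hspa5, which encodes BiP, read 10.50, 10.82, 9.97, 10.85 and 9.94 in control VP and 11.07, 11.48, 11.12, 10.84 and 11.00 in control DLP, where 1 DLP array lay just below the highest VP array. The difference was 0.69 ± 0.24 (adjusted p = 0.021), and the call was lost without control VP 3, without control VP 5 or without control DLP 2 (adjusted p 0.058 to 0.061). On HFD the Hspa5 groups overlapped, 10.92, 10.55, 9.30, 10.11 and 10.59 in VP against 10.42, 10.19, 10.46 and 10.75 in DLP, and the difference of 0.17 ± 0.25 did not pass (adjusted p = 0.61). The other 2 probe sets of Hspa5 differed by 0.96 and 1.99 on the control diet and by 0.78 and 1.02 on HFD, so they disagree with the one of the highest mean on HFD, where the mean of all 3 was higher in DLP by 0.66 ± 0.14 (adjusted p = 0.00065). Dnajb9, Dnajb11 and Dnajc3, J-domain partners of BiP, were higher in DLP on both diets, by 0.29 to 0.49 on the control diet and by 0.42 to 0.63 on HFD. The Dnajb11 call on the control diet was lost when control VP 1, control VP 3, control DLP 2 or control DLP 3 was left out (adjusted p 0.074 to 0.091). Dnajc10, a J-domain disulfide reductase, was higher in DLP by 0.34 ± 0.12 on the control diet (adjusted p = 0.021, but 0.053 and 0.068 without control VP 3 or with the mean of its probe sets) and differed by -0.29 ± 0.13 on HFD (adjusted p = 0.060). Dnajc10 was called lower in DLP on HFD under 6 of 35 alternatives, among them without HFD VP 3 (-0.42, adjusted p = 0.0012) and without HFD DLP 3 (-0.35, adjusted p = 0.043). Calr and Canx, the lectin chaperones calreticulin and calnexin, differed by 0.35 ± 0.12 (adjusted p = 0.017) and by 0.00 ± 0.07 (adjusted p = 0.96; 95% interval -0.15 to 0.16) on the control diet. On HFD neither passed, at -0.02 ± 0.13 and -0.12 ± 0.08. Without control VP 3 the adjusted p of Calr on the control diet was 0.051, and the mean of its 3 probe sets gave 0.43 on HFD (adjusted p = 8.1e-05). The count on HFD was 8 of 12 higher and none lower, with a median of 0.56.

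The disulfide enzymes split. Pdia4, Pdia3 and Pdia6, members of the protein disulfide isomerase family, were higher in DLP on both diets. Pdia4 read 6.82, 6.64, 6.57, 6.35 and 6.73 in control VP and 7.85, 8.01, 8.48, 8.15 and 7.90 in control DLP, without overlap. It differed by 1.46 ± 0.13 on the control diet (adjusted p = 1.1e-08) and by 1.20 ± 0.14 on HFD (adjusted p = 4.3e-07). Pdia3, which works with the lectin chaperones, read 8.52, 8.42, 8.38, 8.67 and 8.57 in control VP and 9.17, 9.26, 9.27, 9.32 and 9.28 in control DLP. The spread within each group was small beside the difference of 0.75 ± 0.06 (adjusted p = 7.4e-09), which was 0.61 ± 0.07 on HFD. Pdia6 read 9.03, 8.87, 8.71, 9.19 and 9.12 in control VP and 9.44, 9.46, 9.59, 9.55 and 9.49 in control DLP, a difference of 0.52 ± 0.10 (adjusted p = 0.00011) and 0.62 ± 0.10 on HFD. P4hb, the founding disulfide isomerase, and Ero1l (now Ero1a), the oxidase that recharges it, did not pass in either comparison. P4hb differed by -0.02 (95% interval -0.23 to 0.19) on the control diet and by -0.24 (-0.47 to -0.02, adjusted p = 0.065) on HFD. P4hb was called lower on HFD under 8 of 35 alternatives, among them without HFD VP 3 (-0.34, adjusted p = 0.0052) and without control VP 3 or control VP 4 (adjusted p = 0.047 and 0.049). Ero1l differed by 0.05 (-0.19 to 0.29) and 0.14 (-0.11 to 0.39), and the mean of its probe sets was higher in DLP on the control diet by 0.26 (adjusted p = 0.011).

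Of the 9 genes of ER-associated degradation, 5 were higher in DLP on both diets (Derl3, Sel1l, Edem1, Edem2 and Derl2), with medians over the 9 of 0.36 on the control diet and 0.39 on HFD. In either direction, 55.6% of the 9 were called on the control diet and 66.7% on HFD, against 55% and 52.9% of all genes. As higher in DLP, 28.2% and 26.8% of all genes were called. Derl3, a derlin of the retrotranslocation machinery, read 5.91, 5.16, 5.08, 5.63 and 5.84 in control VP and 6.91, 7.05, 7.21, 7.04 and 7.03 in control DLP. The VP arrays were spread over a wider range than the DLP arrays, and all of them were lower, by 1.52 ± 0.15 (adjusted p = 4.5e-08) and by 1.39 ± 0.16 on HFD (adjusted p = 3.6e-07). Sel1l, the scaffold of the HRD1 ubiquitin ligase complex, read 6.64, 6.87, 6.69, 6.96 and 6.86 in control VP and 8.15, 7.96, 7.84, 7.98 and 8.03 in control DLP, a difference of 1.19 ± 0.11 (adjusted p = 1.1e-08), and 1.22 ± 0.11 on HFD. Derl2, another derlin, was higher by 0.36 ± 0.08 (adjusted p = 0.00056) and by 0.39 ± 0.08 on HFD. Its second probe set, also past the filter, differed by 0.01 and 0.05. Edem1 and Edem2 trim the mannoses of misfolded glycoproteins. Edem1 read 7.23, 6.79, 6.93, 7.12 and 7.35 in control VP and 7.50, 7.83, 7.98, 7.87 and 7.48 in control DLP, and differed by 0.65 ± 0.14 (adjusted p = 0.00044). Edem2 read 7.01, 6.96, 6.68, 7.07 and 7.21 in control VP and 7.38, 7.34, 7.59, 7.50 and 7.35 in control DLP, and differed by 0.44 ± 0.10 (adjusted p = 0.00065), but its second, dim probe set differed by -0.15, and the mean of both ended the call (adjusted p = 0.17 on the control diet and 0.70 on HFD). On HFD the differences were 0.68 ± 0.14 for Edem1 and 0.50 ± 0.10 for Edem2. The second probe set of Edem1 differed by 0.31 on the control diet and by 0.21 on HFD. Syvn1, which encodes the HRD1 ligase itself, differed by 0.29 ± 0.12 (adjusted p = 0.054) and by 0.29 ± 0.13 on HFD (adjusted p = 0.073). Syvn1 lay at the threshold: it passed as higher in DLP under 15 of 35 alternatives on the control diet, 6 of them with 1 array left out (control VP 2, control DLP 5, HFD VP 1, VP 2 or VP 3, or HFD DLP 1, adjusted p 0.027 to 0.050), and under 4 on HFD (without HFD VP 1, VP 2 or DLP 3, or with the replicate block, adjusted p 0.026 to 0.044). Derl1 and Selenos, a further derlin and a selenoprotein of the same complex, lay within 0.14 of 0 on both diets, although the mean of the 3 Selenos probe sets gave 0.50 on the control diet (adjusted p = 0.00056) and 0.57 on HFD (adjusted p = 0.00029). For Derl1 the mean of its probe sets gave 0.27 on the control diet (adjusted p = 0.0039), and Selenos also passed there without control VP 4 and HFD VP 3 (0.18, adjusted p = 0.049). Herpud1, a stress-induced adaptor of HRD1, differed by -0.32 ± 0.16 on the control diet (adjusted p = 0.094, but 0.038 and 0.043 without control VP 3 or HFD DLP 1) and was lower in DLP on HFD, at -0.52 ± 0.17 (adjusted p = 0.014). That call was lost without HFD DLP 3 or HFD DLP 4 (adjusted p 0.054 and 0.064).

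**Figure D2:**
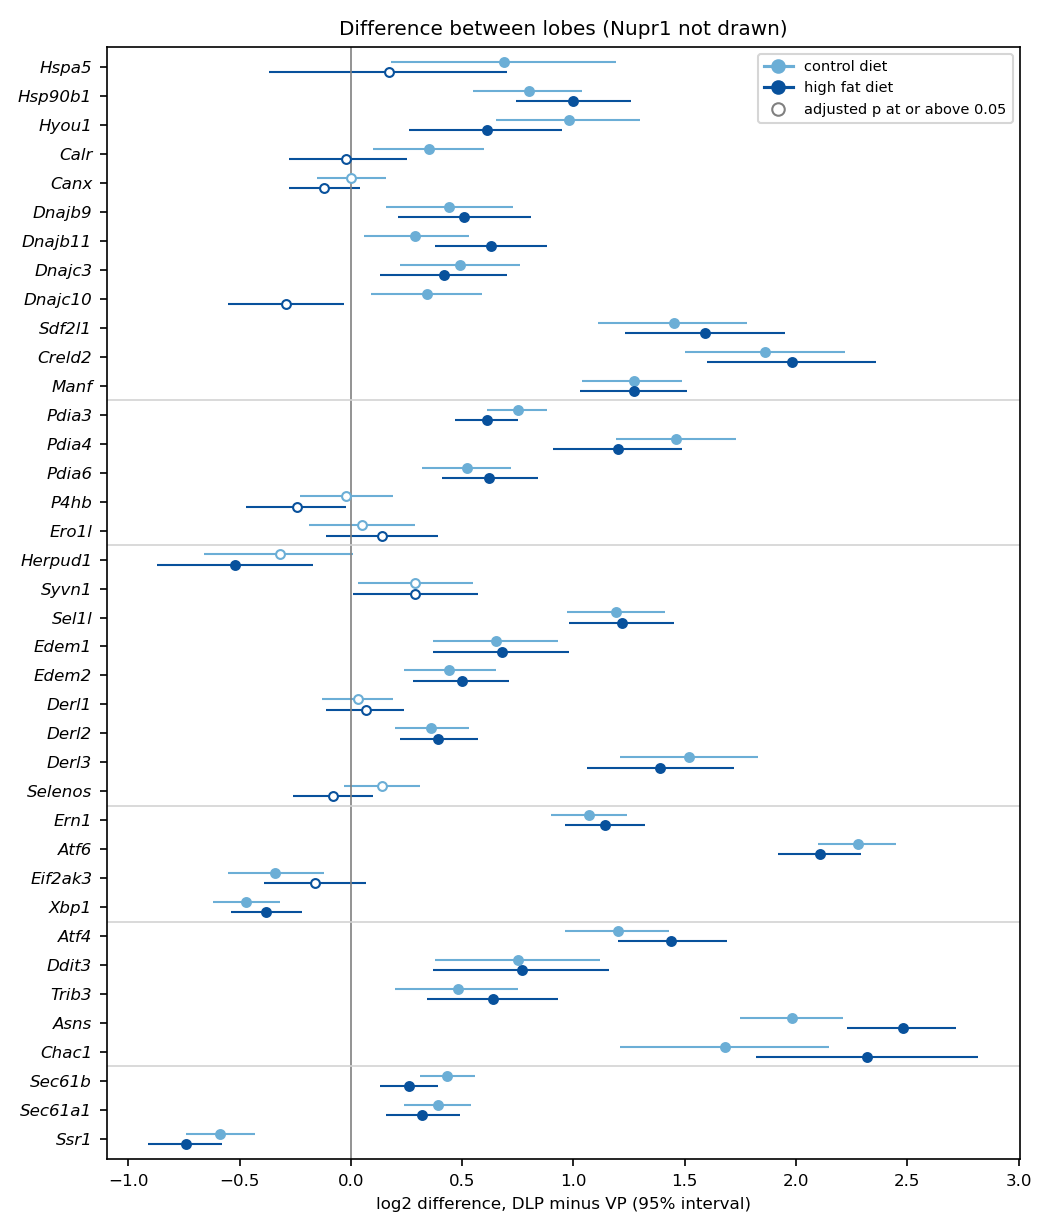
Log2 difference between lobes, DLP minus VP, for 38 of the 39 genes (rows, in the order of the heat map), with the 95% interval from limma, on the control diet (light blue) and on HFD (dark blue). Filled points passed the adjusted threshold; Nupr1, at -6.38 and -6.06, is not drawn. Atf6, Asns, Chac1 and Creld2 lie farthest to the right, and Ssr1, Xbp1, Herpud1, Eif2ak3 and P4hb lie to the left of 0 on both diets.

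The sensors moved in different directions. Atf6 read 4.64, 4.74, 4.42, 4.29 and 4.50 in control VP and 6.80, 6.67, 6.78, 6.79 and 6.93 in control DLP. The lobes were separated by much more than their spread, and the difference of 2.28 ± 0.08 (4.84-fold, adjusted p = 1.7e-14) was the largest positive one among the 39 genes on the control diet. On HFD the arrays read 4.79, 4.71, 4.56, 4.91 and 4.67 in VP and 6.79, 6.71, 6.93 and 6.91 in DLP, a difference of 2.11 ± 0.09 (adjusted p = 1.7e-13). The other 2 probe sets of Atf6 gave 0.78 and 1.17 on the control diet and 1.06 and 1.07 on HFD. Ern1, which encodes IRE1, read 5.96, 5.94, 5.86, 6.14 and 6.29 in control VP and 7.05, 7.09, 7.17, 7.15 and 7.09 in control DLP. The groups were again apart, by 1.07 ± 0.08 (adjusted p = 1.1e-09) and by 1.14 ± 0.09 on HFD (adjusted p = 1.0e-09). Its dimmer probe sets past the filter gave 0.23 and 0.62 on the control diet and 0.32 and 0.65 on HFD. Xbp1, the target that IRE1 splices, went the other way, with 9.44, 9.62, 9.48, 9.63 and 9.54 in control VP and 9.12, 9.06, 9.12, 9.06 and 9.01 in control DLP. Its total transcript was lower in DLP, at -0.47 ± 0.07 (adjusted p = 1.9e-05) and at -0.38 ± 0.08 on HFD (adjusted p = 0.00039), and the arrays do not separate its spliced form. Of its 3 other probe sets, 2 were also lower in DLP (-0.54 and -0.81 on the control diet) and a dim one was not (0.02). Eif2ak3, which encodes PERK, read 6.09, 6.35, 6.02, 6.24 and 6.07 in control VP and 5.84, 5.89, 5.94, 5.61 and 5.80 in control DLP. It was lower in DLP, at -0.34 ± 0.10, on the control diet (adjusted p = 0.0088) and did not pass on HFD, at -0.16 ± 0.11 (adjusted p = 0.24).

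The 3 translocation genes also differed. Sec61b, a subunit of the Sec61 channel, read 8.98, 8.89, 8.82, 9.14 and 8.99 in control VP and 9.36, 9.53, 9.34, 9.41 and 9.35 in control DLP. Sec61a1, which encodes the pore-forming subunit, read 7.90, 7.82, 7.64, 7.89 and 7.98 in control VP and 8.15, 8.29, 8.26, 8.18 and 8.32 in control DLP. Both were higher in DLP without overlap, by 0.43 ± 0.06 (adjusted p = 5.1e-06) and 0.39 ± 0.07 (adjusted p = 0.00016), and by 0.26 ± 0.06 and 0.32 ± 0.08 on HFD. Ssr1, a subunit of the translocon-associated complex, was lower in DLP, with 7.31, 7.46, 7.32, 7.62 and 7.21 in control VP and 6.83, 6.77, 6.78, 6.83 and 6.78 in control DLP. Its difference was -0.59 ± 0.08 (adjusted p = 1.7e-06) and -0.74 ± 0.08 on HFD (adjusted p = 1.7e-07), and all 4 of its probe sets were lower in DLP.

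In the ATF4-CHOP arm all 6 genes were called on both diets, 5 higher in DLP and Nupr1 lower. The median over the 6 was 0.98 on the control diet and 1.10 on HFD, against 0.52 and 0.61 over the 17 chaperones and disulfide enzymes, of which 14 were higher on the control diet and 11 on HFD. Without Nupr1, a split made after its values were seen, the medians of the remaining 5 were 1.20 and 1.44. Atf4 read 6.06, 5.77, 5.92, 6.12 and 6.39 in control VP and 7.32, 7.36, 7.27, 6.91 and 7.38 in control DLP. The groups did not overlap, and its difference was 1.20 ± 0.11 (adjusted p = 2.2e-08), or 1.44 ± 0.12 on HFD (adjusted p = 3.7e-09). Ddit3, which encodes CHOP, read 3.76, 3.62, 3.29, 3.61 and 3.15 in control VP and 4.30, 4.25, 4.51, 3.92 and 4.21 in control DLP, a difference of 0.75 ± 0.18 (adjusted p = 0.0013). On HFD the Ddit3 groups overlapped because VP 1 read 4.15, and the difference was 0.77 ± 0.19 (adjusted p = 0.0020). The second, dimmer probe set of Ddit3 differed by 0.19 on the control diet and by 0.28 on HFD. Trib3, a pseudokinase that ATF4 and CHOP induce, read 1.93, 1.87, 1.72, 2.27 and 1.75 in control VP and 2.50, 2.34, 2.32, 2.09 and 2.67 in control DLP. The control groups overlapped, with a difference of 0.48 ± 0.13 (adjusted p = 0.0049), and those on HFD did not, with a difference of 0.64 ± 0.14 (adjusted p = 0.00077). Trib3 was dim, above the array median on 16 of 19 arrays.

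Asns and Chac1 had the largest positive differences of the arm. Asns, which encodes asparagine synthetase, read 5.78, 5.73, 5.61, 6.04 and 5.61 in control VP and 7.75, 7.63, 7.92, 7.62 and 7.78 in control DLP. On HFD it read 5.61, 5.54, 5.18, 5.59 and 5.61 in VP and 8.12, 7.60, 8.10 and 8.11 in DLP, where DLP 2 lay below the other DLP arrays. The lobes were far apart on both diets, by 1.98 ± 0.11 (adjusted p = 1.1e-11) and 2.48 ± 0.12 (adjusted p = 1.1e-12). Chac1, an enzyme that breaks down glutathione, read 2.42, 2.56, 2.38, 2.63 and 2.00 in control VP and 4.34, 3.99, 4.13, 3.43 and 4.48 in control DLP. In the HFD groups it read 2.63, 2.27, 2.11, 2.08 and 2.05 in VP and 5.16, 3.64, 4.63 and 4.75 in DLP. Its spread was wider than that of Asns, and its difference was 1.68 ± 0.23 (adjusted p = 3.1e-06) and 2.32 ± 0.24 (adjusted p = 9.6e-08). Without DLP 2 of both diets the HFD difference was 2.60 for Asns and 2.62 for Chac1.

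Nupr1, a small stress-induced chromatin protein, had by far the largest difference of the 39 and the opposite sign. It read 9.47, 10.48, 10.49, 10.00 and 9.52 in control VP and 9.44, 10.67, 9.47, 9.76 and 9.75 in VP on HFD. In DLP it read 3.58, 4.85, 3.13, 3.19 and 3.33 on the control diet and 2.99, 5.76, 2.93 and 3.34 on HFD. Every VP array was above every DLP array, and within DLP the highest value of each diet was on DLP 2, the arrays that also held the most of other VP-high transcripts. The difference was -6.38 ± 0.44 on the control diet (83.2-fold lower in DLP, adjusted p = 2.8e-10) and -6.06 ± 0.47 on HFD (66.7-fold, adjusted p = 1.5e-09). Without both DLP 2 arrays it was -6.69 and -6.73, and a second probe set gave -6.89 and -6.62 on all arrays.

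**Figure D3:**
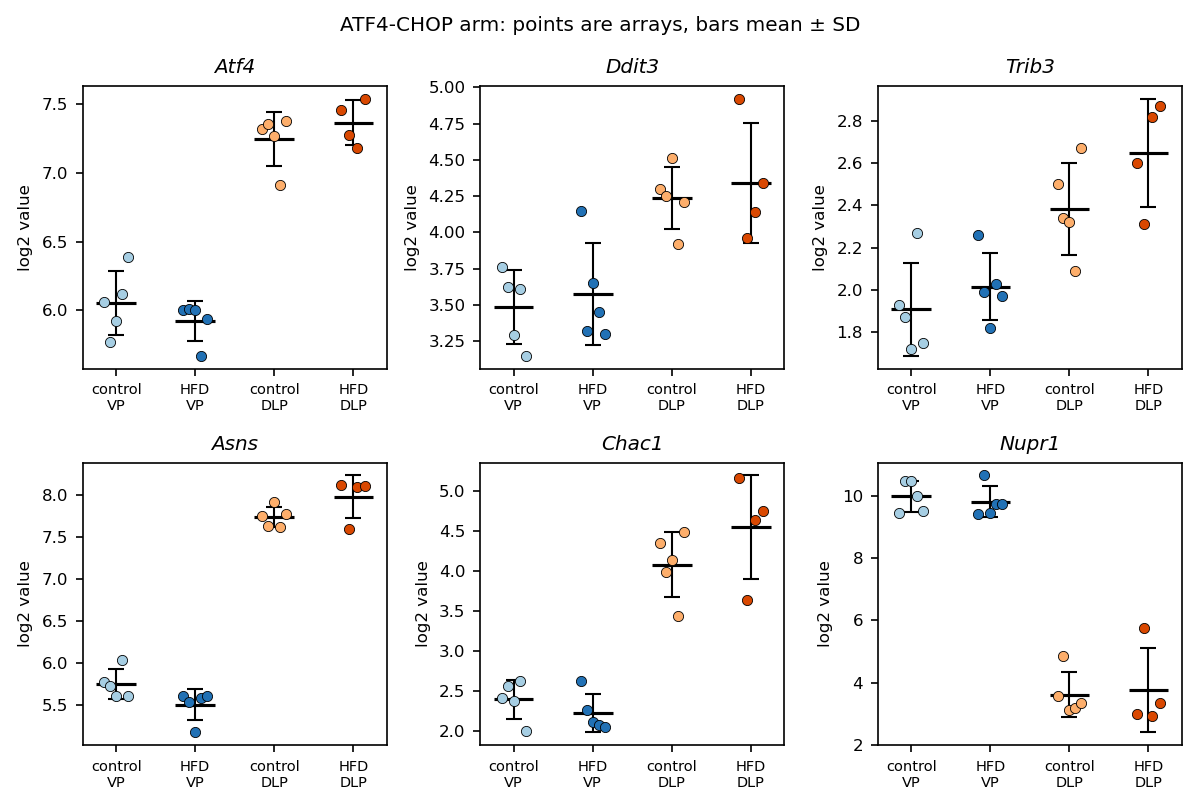
Log2 value of the 6 ATF4-CHOP genes on each array (points) by group, with the mean and SD of each group (bars); each panel has its own axis. Atf4, Asns and Chac1 lie higher on all DLP arrays than on any VP array, Ddit3 and Trib3 overlap slightly between lobes, and Nupr1 lies between 9.44 and 10.67 in VP and between 2.93 and 5.76 in DLP.

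Mean levels were also taken per array over the genes of a role, each relative to its mean over the 19 arrays. The 17 chaperones and disulfide enzymes averaged -0.56 to -0.14 on the control VP arrays, -0.60 to -0.08 on the HFD VP arrays, 0.32 to 0.54 on the control DLP arrays and 0.19 to 0.29 on the HFD DLP arrays. The 5 ATF4-CHOP genes other than Nupr1 averaged -0.75 to -0.39, -0.78 to -0.40, 0.27 to 0.78 and 0.43 to 1.12 in the same order. With Nupr1 in the average, the ATF4-CHOP arm ran from -0.19 to 0.18, -0.23 to 0.08, -0.41 to 0.14 and 0.03 to 0.28, and the lobes overlapped. The 2 DLP groups did not overlap in the folding average, HFD being lower, while they overlapped in both ATF4-CHOP averages.

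Neighbouring pathways, listed with earlier results of these data known, gave the following lobe differences. Of 28 measured ATF4 targets outside the list (of 30), 22 were higher in DLP on each diet and none was lower, with medians of 0.72 and 0.76. Gpt2, an alanine aminotransferase, was higher by 2.97 ± 0.11 on the control diet, Slc7a5, a carrier of large neutral amino acids, by 2.89 ± 0.18, and Psat1 of serine synthesis by 2.25 ± 0.11 (adjusted p = 4.0e-14, 6.2e-11 and 1.1e-12). Of 20 translocon and oligosaccharyltransferase genes, 11 were higher in DLP and 2 lower on the control diet (11 and 1 on HFD), among them Ddost by 0.75 ± 0.07, Ssr2 by 0.70 ± 0.10 and Ssr3 by 0.69 ± 0.10. Ssr2 and Ssr3 are partners of Ssr1, which was lower. Of 22 genes of COPII vesicles and Golgi retrieval, 11 were higher and 4 lower (8 and 3 on HFD), with a median of 0.32 and Tmed9 (1.12 ± 0.38), Sec24a (0.88 ± 0.10) and Tmed3 (0.82 ± 0.09) as the largest. Other ER quality control genes were evenly split, 9 higher and 8 lower of 30 on each diet, with medians of 0.03 and 0.02. Fkbp11, an ER prolyl isomerase, was higher by 2.08 ± 0.22, Fkbp2 by 1.15 ± 0.12, and Ero1b, the second ER oxidase, was lower, at -1.72 ± 0.15. Other stress regulators were split too, 4 higher and 4 lower of 17 (5 and 3 on HFD). Bhlha15 (Mist1), a transcription factor of secretory cells, was lower in DLP, at -1.48 ± 0.26 (adjusted p = 8.4e-05), Creb3l4 was lower, at -0.99 ± 0.17, and Creb3l1 was higher by 1.45 ± 0.13. Of 14 cytosolic heat shock genes, 6 were higher on the control diet and 3 on HFD and none was lower, with medians of 0.30 and 0.16. Against 55% of all genes called on the control diet and 52.9% on HFD, the shares called were 78.6% on each diet for the ATF4 targets, 65% and 60% for the translocon list, and 68.2% and 50% for the vesicle genes. They were 56.7% on each diet for ER quality control, 47.1% on each for the stress regulators, and 42.9% and 21.4% for the cytosolic heat shock genes, near or below the share of all genes.

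Few calls were made between diets. In VP, 1 of 39 genes passed between HFD and control diet, against 1.11% of all genes (0.529% higher and 0.58% lower). That gene was Dnajc10, the ER reductase with a J domain. It read 9.96, 10.13, 9.86, 10.19 and 9.89 in control VP and 10.68, 10.80, 10.04, 10.47 and 10.81 in VP on HFD. Of the HFD arrays 4 were above every control array, and VP 3 at 10.04 was within the control range. The difference was 0.55 ± 0.12 (adjusted p = 0.032). The adjusted p was above the threshold with the mean of its probe sets (0.42, adjusted p = 0.099), in the VP arrays alone (adjusted p = 0.24), with 1 weight per lobe (0.085), and without control VP 3, control VP 5 or HFD VP 1, VP 2 or VP 5 (0.057 to 0.067). Its other 2 probe sets differed by 0.38 and 0.34. In DLP, Dnajc10 differed by -0.08 ± 0.13, with other probe sets at 0.06 and 0.41, and the test of the difference between lobes gave -0.63 ± 0.17 (adjusted p = 0.35). Without control VP 4 and HFD VP 3 together, arrays chosen from an earlier analysis of these data, this last test gave -0.81 (adjusted p = 0.040).

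The other 38 genes did not pass in VP, and for none of the 39 were the VP groups of the 2 diets apart, against 2.58% of all genes. Unadjusted p was under 0.05 for 10 of the 39, against 15.2% of all genes. Dnajb11 read 5.63, 5.87, 5.58, 5.99 and 5.80 in control VP and 5.83, 5.44, 5.10, 5.18 and 5.41 in VP on HFD. The groups overlapped through HFD VP 1, and the difference was -0.38 ± 0.11 (adjusted p = 0.10, or 0.024 at -0.49 without HFD VP 1). Derl2, a derlin, read 6.18, 6.16, 5.89, 6.33 and 6.03 and 5.95, 5.96, 5.70, 5.74 and 5.96, and differed by -0.26 ± 0.08 (adjusted p = 0.12). Its second probe set differed by -0.01. Edem1 differed by -0.40 ± 0.14 (adjusted p = 0.15). Ssr1 differed by 0.16 ± 0.08 (adjusted p = 0.32), or by 0.27 without control VP 4 and HFD VP 3 (adjusted p = 0.038). By sign, 23 of 39 were negative, against 5610 of 11728 genes, and the medians were -0.07 and 0.01. The ATF4-CHOP genes lay between -0.25 (Asns) and 0.10 (Trib3), and none passed. Some markers of other cells differed in VP as well, none of them called. All 7 smooth muscle markers were positive (median 0.20; summed level 10.87 to 11.22 on the control diet and 10.89 to 11.38 on HFD). Both tested adipocyte markers were negative (-1.19 and -0.23, median -0.71). Their mean level, relative to all 19 arrays, ran from 0.12 to 1.19 on the control diet and from -0.43 to 0.02 on HFD, without overlap. The summed level over 4 adipocyte markers did overlap, at 5.27 to 5.97 and 4.87 to 5.28. Both tested seminal vesicle markers were positive (median 1.25), with a summed level over 5 markers of 2.84 to 3.38 and 2.84 to 6.76. The part of these cells in the VP diet differences was not tested.

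**Figure D4:**
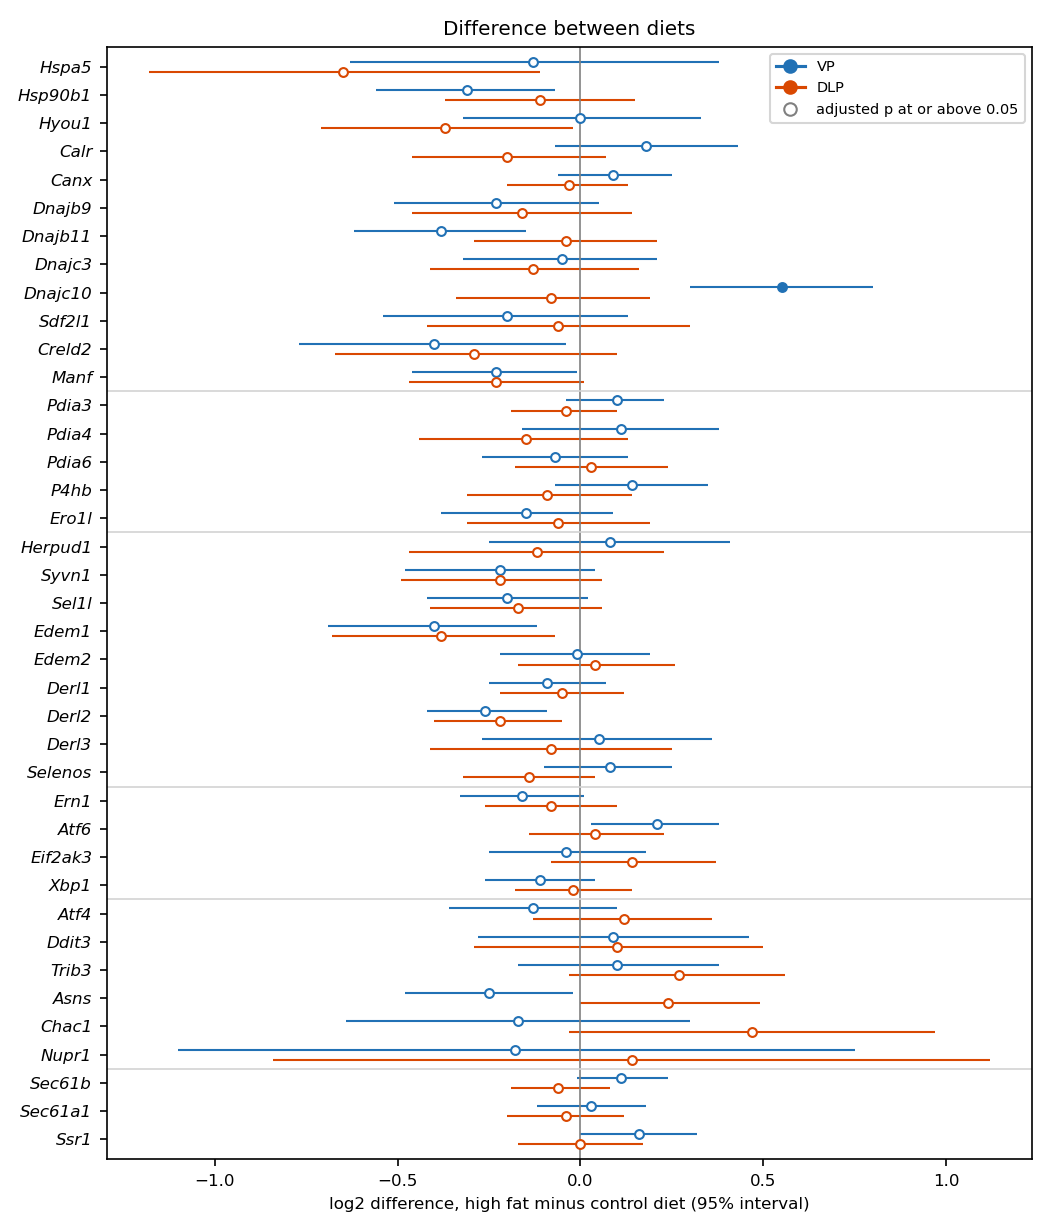
Log2 difference between diets, HFD minus control, for the 39 genes (rows, in the order of the heat map), with the 95% interval from limma, in VP (blue) and DLP (orange). Filled points passed the adjusted threshold. Dnajc10 in VP is the only filled point; in DLP the chaperone points all lie left of 0 and the ATF4-CHOP points right of 0, with wide intervals for Nupr1.

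In DLP, none of the 39 genes passed in limma, as was true of all genes tested (0%; 662 genes, or 5.64%, had an unadjusted p under 0.05, 4 of them members). The signs of the roles are given as a description. On the probe set that stood for each gene, the differences of all 12 chaperones were negative, with a median of -0.14. So were 16 of the 17 chaperones and disulfide enzymes together (median -0.11) and 8 of 9 degradation genes (median -0.14). Among further probe sets of the chaperones, the dimmest of Canx (0.17) and those of Dnajc10 (0.06 and 0.41) were positive. The rest were negative. All 6 ATF4-CHOP genes were positive, with a median of 0.19. Of their second probe sets past the filter, those of Ddit3 (-0.16) and Atf4 (-0.03) were negative. Those of Trib3 (0.14), Asns (0.14) and Nupr1 (0.16) were positive, and Chac1 has 1 probe set. Over all genes the median was 0.01, with 5434 of 11728 negative, and over 14 cytosolic heat shock genes it was -0.25 with none above 0. These signs are not independent of each other, since the genes were measured on the same 9 arrays. Of the marker lists, all 7 nerve markers were negative (median -0.99; summed level 4.95 to 7.60 on the control diet and 5.06 to 5.58 on HFD) and all 7 smooth muscle markers positive (median 0.26; 11.19 to 11.38 and 11.42 to 11.54). All 5 macrophage markers were negative (median -0.10; 5.52 to 7.07 and 5.60 to 6.05), and 5 of the 6 luminal markers were positive (median 0.15). None of these markers was called, and their part in these values was not tested.

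The DLP groups of the 2 diets did not overlap for 3 of the 39 genes (7.69%), against 3.15% of all genes. Hspa5 read 11.07, 11.48, 11.12, 10.84 and 11.00 on the control diet and 10.42, 10.19, 10.46 and 10.75 on HFD, with every HFD array lower. Its difference was -0.65 ± 0.25 (adjusted p = 0.82), and -0.46 without both DLP 2 arrays. Derl2 read 6.44, 6.54, 6.59, 6.38 and 6.47 and 6.27, 6.32, 6.16 and 6.28, a difference of -0.22 ± 0.08 (adjusted p = 0.82). Its second probe set differed by 0.03. Manf read 9.81, 9.86, 9.81, 9.64 and 9.76 and 9.61, 9.45, 9.51 and 9.61, a difference of -0.23 ± 0.11 (adjusted p = 0.88). Edem1 overlapped through HFD DLP 2, with 7.50, 7.83, 7.98, 7.87 and 7.48 and 7.15, 7.68, 7.29 and 7.30, and differed by -0.38 ± 0.14 (adjusted p = 0.82). Of the ATF4-CHOP genes, Chac1 differed by 0.47 ± 0.24, Trib3 by 0.27 ± 0.14 and Asns by 0.24 ± 0.12 (adjusted p 0.88 to 0.92). On HFD DLP 2 these 3 genes and Ddit3 were the lowest of their group, and without both DLP 2 arrays Chac1 differed by 0.75, Trib3 by 0.37 and Asns by 0.34, still without a call (adjusted p 0.79 to 1.0). The positive sign of all 6 did not hold in every set of arrays, since Nupr1 was at -0.22 without both DLP 2 arrays and Ddit3 at -0.09 without VP 2 and DLP 1 of the HFD groups.

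**Figure D5:**
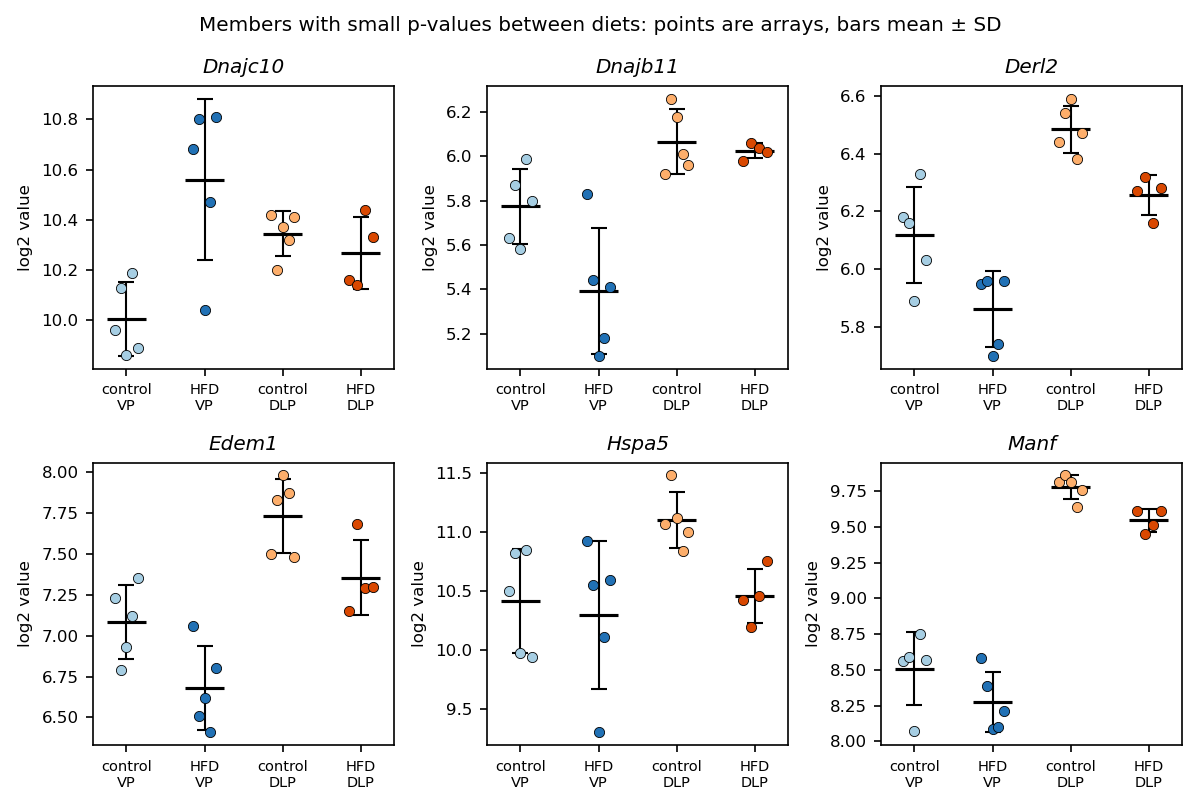
Log2 value on each array (points) by group, with the mean and SD of each group (bars), for the genes with the smallest p between diets and for Manf; each panel has its own axis. Dnajc10 is raised on 4 of 5 HFD arrays in VP, while Hspa5, Derl2 and Manf are lower on all 4 HFD arrays than on any control array in DLP.

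The test of whether the diet difference itself differed between lobes called none of the 39 genes, in a comparison that called 0.00853% of all genes. Unadjusted p was under 0.05 for 3 members (8.45% of all genes): Dnajc10 above, Asns at 0.49 ± 0.16 (adjusted p = 0.41) and Calr at -0.37 ± 0.17 (adjusted p = 0.58). Averaged over both lobes, the diet comparison called none of the 39 in limma, against 0.119% of all genes, and 10 members had an unadjusted p under 0.05 (11.8% of all genes). The smallest adjusted p belonged to Derl2 (-0.24 ± 0.06, 0.091), Edem1 (-0.39 ± 0.10, 0.11) and Manf (-0.23 ± 0.08, 0.23). No gene of the neighbouring pathway lists was called for diet in VP or in DLP.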

How the data were processed

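RNA from whole VP and DLP lobes was measured on 19 Affymetrix arrays of 45101 probe sets, of which 34945 carry a single symbol, 932 several and 9160 none. The values deposited by the authors are read as log10 (0 to 3.99, median 0.555 on each array, offset of 1 assumed). MAS5 is named per the submitters' processing notes. The base was inferred from spike-in steps and is not stated, so every fold rests on it, and all 19 arrays hold the same sorted values, by a normalization that the sources do not describe. Values were multiplied by 3.322 to give log2. Probe sets above their array's median on at least 4 arrays were kept (24867), and each gene stood by the one with the highest mean. The 4 group means were fitted together with limma 3.58.1 in R 4.3.3 (trended variance prior), with Benjamini-Hochberg adjustment over 11728 genes, and tested on simulated data. The number of arrays limits the precision, and the sources name no hybridization batch.

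The members and lists were chosen with earlier results of these data known, so no test over a list was made. Per-array values are given for all 6 ATF4-CHOP genes, for up to 4 genes of each other role (largest called control-diet lobe difference with groups apart) and for the 3 smallest p in each diet comparison; at most 3 genes of a pathway list are named. Manf in the diet comparison, and the further genes given with differences only, were added after their values were seen, to account for every member. The labels do not say whether VP and DLP arrays of 1 number share a mouse, and the numbers were not taken to pair arrays. Of 9 same-number pairs, 4 correlated above 0.1 (-0.07 to 0.19). Pairs of different number ran from -0.28 to 0.21, and a smaller share of them lay above 0.1. On each diet the arrays outnumbered the mice, so some arrays share a mouse, but these values cannot decide which. The main fit takes all arrays as independent and does not account for shared mice. Alternatives changed the scaling, offset, filter, probe set rule, variance model, block and arrays.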

Additional observations from a re-analysis of the deposited data

Results flagged for a closer look

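Within groups of 4 or 5 arrays, 16 of 156 values at a group's edge lay far from the rest by Dixon's criterion, which chance alone meets in about 1 in 20 groups. Nupr1 was high on control DLP 2 (4.85), HFD DLP 2 (5.76) and HFD VP 2 (10.67). Atf4 was low on HFD VP 4 (5.67) and control DLP 4 (6.91), and Asns on HFD VP 3 (5.18) and HFD DLP 2 (7.60). On control VP 3, Creld2 (6.75) and Manf (8.07) were low. On HFD VP 3, P4hb (9.74) and Derl1 (7.42) were low. On HFD DLP 1, Ero1l (4.34), Ern1 (7.14) and Ssr1 (6.86) were high. On HFD DLP 4, Canx was high (9.07) and Eif2ak3 low (5.79).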

How the results depend on the processing

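Most lobe calls were kept, while some genes near the threshold were gained or lost. On the control diet 27 of the 32 called genes were called under every alternative and 28 whenever 1 array was left out, and on HFD 27 and 28 of 29. Leaving out 1 array gave 24 to 29 genes higher and 4 to 5 lower on the control diet, 25 to 26 higher and 3 to 6 lower on HFD, and 0 to 1 higher and 0 to 1 lower for diet in VP. With the mean of all probe sets of a gene, Calr and Selenos on HFD turned from -0.02 and -0.08 to 0.43 and 0.57. The same setting moved the lobe medians of the disulfide enzymes to 0.78 (control diet) and 0.74 (HFD), of the sensors to 0.15 and 0.27 and of the 17 folding genes to 0.73 on the control diet, and the median of the translocation genes in the test of the diet difference between lobes to -0.03. The filter at the 75th percentile removed Trib3, and the remaining 5 genes gave ATF4-CHOP medians of 1.20 and 1.44. The single member called higher for diet in VP became 0 with the mean of probe sets, 1 weight per lobe, the VP arrays alone or a fixed replicate block, and 0 without both DLP 2 arrays or without VP 2 and DLP 1 of the HFD groups, both of which were chosen after seeing the data. Without control VP 4 and HFD VP 3 it was 2, Ssr1 among them, and the sensors' median for diet in VP was 0.02. The translocation median for the difference between lobes was then -0.23. In the same setting 1 member each was called lower for that difference and higher for the average of both lobes. Over all genes, the 62 higher and 68 lower for diet in VP were 0 and 0 in the VP arrays alone, and the stricter filter gave 105 and 104. The cause of these changes was not tested. Whether arrays of the same number share a mouse is not stated, and the numbers were not taken to pair them. With the number as a replicate block Dnajc10 in VP had an adjusted p of 0.051, Herpud1 (0.023) and Syvn1 (0.012) passed between lobes on the control diet, and P4hb (0.049) and Syvn1 (0.026) on HFD; with diet and number as a random block (correlation 0.044), Syvn1 on the control diet passed (0.046).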
